A study of Rattus norvegicus with 3 samples.

Results

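The complement components and regulators examined here were 9 genes, C1qa, C1qb, C1qc, C1r, C1s, C2, C3, Cfb and Serping1, chosen by name among the rat probes of the array, with Cfb also taken under its old symbol Bf and C1qc under C1qg. They were measured by 13 of the 41012 rat probes, and all 9 were among the 20360 genes tested. Each of 3 two-colour arrays set RNA of the rat induced pluripotent stem (iPS) cell line M13, labelled with Cy3, against 1 RNA named mix1, labelled with Cy5. The iPS M13 cells, adult cells reprogrammed to an embryonic-like state, were untreated and grown on irradiated mouse embryonic fibroblast feeders, and the labels number them as samples 1, 2 and 3. The mix1 RNA combined cultured rat bone marrow cells with cultured primary fibroblasts of the rat ear, and was the same adult reference on every array. No strain, age or sex is given in the labels, and M13 is a single line.

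Complement is a cascade of plasma proteins that marks microbes and dying cells for removal. In the classical pathway the recognition molecule C1q, built of A, B and C chains, binds its target and activates the proteases C1r and then C1s, which cut C4 and C2 to form an enzyme that cleaves C3. Cfb forms the matching enzyme of the alternative pathway, and the inhibitor encoded by Serping1 inactivates C1r and C1s. The liver makes most circulating components, whereas macrophages are a main source of C1q, and fibroblasts are known to secrete C1r, C1s and C3.

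The probes are shown because the measured value of a member depended on which probe was read, most of all for C1qc. Each is 60 bases long, and positions are those of build rn3 in the array files, with no rn3 gene annotation used here. The 2 C1qc probes came from chr5:155666677-155666736 and chr5:155669003-155669062. In the second, capitals mark 7 glycine codons (GGN), spaced 3 codons apart through a 20-codon frame, the spacing of a collagen-like stretch. The C1qa and C1r probes that stand for their genes are given for comparison, from chr5:155672617-155672676 and chr4:160973566-160973625.
C1qc, first probe: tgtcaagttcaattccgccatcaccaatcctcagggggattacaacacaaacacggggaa
C1qc, glycine-rich probe: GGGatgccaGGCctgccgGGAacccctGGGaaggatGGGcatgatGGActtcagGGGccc
C1qa: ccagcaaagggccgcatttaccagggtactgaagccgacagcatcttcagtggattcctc
C1r: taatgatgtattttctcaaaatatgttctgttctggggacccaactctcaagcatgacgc
None of these sequences other than the glycine-rich probe of C1qc carried that spacing through the whole probe.

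In iPS M13 all 9 genes were lower, and 0 were higher, relative to mix1. The 9 log2 ratios of iPS M13 over mix1 had a median of -6.00, where the median over all genes tested was -0.03. Among all genes tested 25.5% were called lower and 18.7% higher, so a lower call alone was common. The measured log2 ratio was under -5 for 8 of the 9, where it was for 2.44% of all genes. This limit was not part of the planned calls, and the members were chosen with earlier results of these data known. The contrast is thus a description and no test. Of these 8, 7 had iPS M13 well above background on each array. The other, C1qc, is known with that probe only to a bound that does not reach -5. Its second probe, measured in both RNAs, had a log2 ratio of -1.86. C3 also left that range under other scalings, at -4.30 with median centring, -4.35 with no within-array normalization and -4.57 with the GC trend removed. With the scanner software's processed signals, and with the authors' deposited log2 values, C3 was at -4.84. A second Serping1 probe, measured in both RNAs, had a log2 ratio of -4.92. A gene was called at a Benjamini-Hochberg adjusted p under 0.05 in limma with at least a 2-fold difference, and the adjusted p-values of the members ran from 6.55e-07 to 4.17e-06. Every member was lower on 3 of 3 arrays. By the adjusted p with no fold limit 19560 genes would have passed, so the limit of 2-fold decided most calls.

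**Figure D1:**
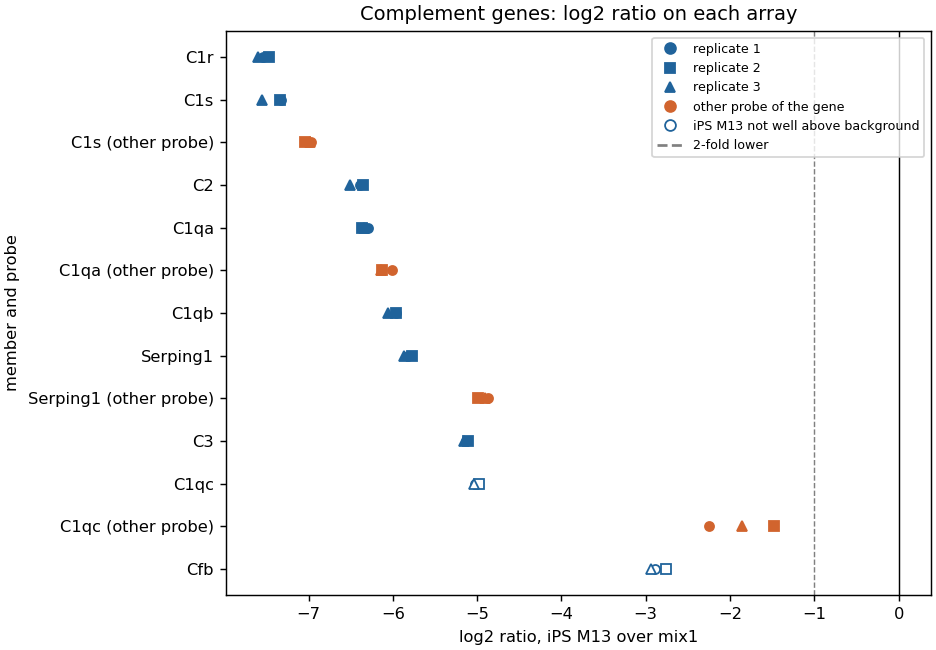
Log2 ratio of iPS M13 over mix1 (horizontal axis) for each member and probe (vertical axis) on each of the 3 arrays (circle, square and triangle). Orange points are the second probe of a gene, open points are probes with no iPS M13 spot well above background, and the dashed line is 2-fold lower. All points lie left of that line, and the glycine-rich C1qc probe stands to the right of the first C1qc probe.

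The test set the mean ratio of 3 arrays against 0, so the spread of mix1, a single control RNA, is left out. No dye was swapped, so dye and cell type cannot be told apart. The labels do not say that the 3 iPS M13 samples came from separate cultures, so the p-values rest on the spread of these 3 samples alone, perhaps a technical one. Across all genes, which are not independent replicates, ratios of any 2 arrays correlated at 0.997 to 0.998. In RNA from many cells, fewer cells of a type and less RNA per cell cannot be told apart, and the ratios do not say which cells of mix1 carried a transcript. In the iPS M13 channel, RNA of the iPS cells and any RNA of the mouse feeders cannot be told apart either. The SDs of the members lay between 0.02 and 0.13.

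All 3 chains of C1q were lower in iPS M13. With the probe that stands for the gene, 2 had a measured ratio and C1qc a bound. C1qa, the A chain, had spot brightnesses in iPS M13 of 325, 343 and 342 on replicates 1, 2 and 3, and in mix1 of 14108, 17079 and 14626. The iPS M13 spots were thus dim but above the negative control spots, whose medians in that channel were 76.0, 77.4 and 77.1. Its log2 ratio was -6.33 ± 0.03 (SD, n = 3), 80.7-fold lower. C1qb, the B chain, had brightnesses of 543, 588 and 584 in iPS M13 and 18896, 22312 and 20560 in mix1, and a log2 ratio of -6.00 ± 0.05 (SD, n = 3), 63.9-fold lower. With the probes that stand for the genes, the arrays of C1qa and C1qb did not overlap in ratio. They ran from -6.36 to -6.30 for C1qa and from -6.06 to -5.96 for C1qb. The second C1qa probe, from -6.14 to -6.01, overlapped C1qb.

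C1qc, the C chain, gave a different value with each probe. With the probe that stands for the gene, brightnesses were 127, 150 and 137 in iPS M13 and 2536, 3267 and 2636 in mix1. The iPS M13 spots were never well above background, so the probe gives only a bound: at least 25.8-fold lower for that probe, with a measured log2 ratio of -5.02 ± 0.03 (SD, n = 3). With the glycine-rich probe, brightnesses were 213, 579 and 325 in iPS M13 and 674, 1087 and 740 in mix1, and each iPS M13 spot was well above background. The log2 ratios of that probe were -2.25, -1.48 and -1.86, with a mean of -1.86 ± 0.39 (SD, n = 3). The measured ratios stood 3.16 log2 units apart. With the first probe at its bound, the probes differed by at least 7.11-fold, and both were lower on every array.

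That disagreement was uncommon on the array. Among 2548 genes with 2 kept probes, the median difference between the probes was 0.36 log2 units, and 41 genes (1.61%) had measured ratios further apart than those of C1qc, or 59 genes (2.32%) further apart than its bound. The SD of the glycine-rich probe between arrays was also high, and 162 of 24178 kept probes (0.67%) had a larger one. Of the 77 kept probes within 2 percentage points of its GC content, 68.3%, itself among them, 0 had a larger SD, and their median SD was 0.04. The glycine codon spacing was held through the whole sequence by 5 probes of the array, and the 2 others that were kept had log2 ratios of -6.96 and -3.92. The longest run of bases it shared with any other probe of the array was 13, found in 2 probes of other genes. What the glycine-rich probe measured in the iPS M13 channel was not tested.

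**Figure D2:**
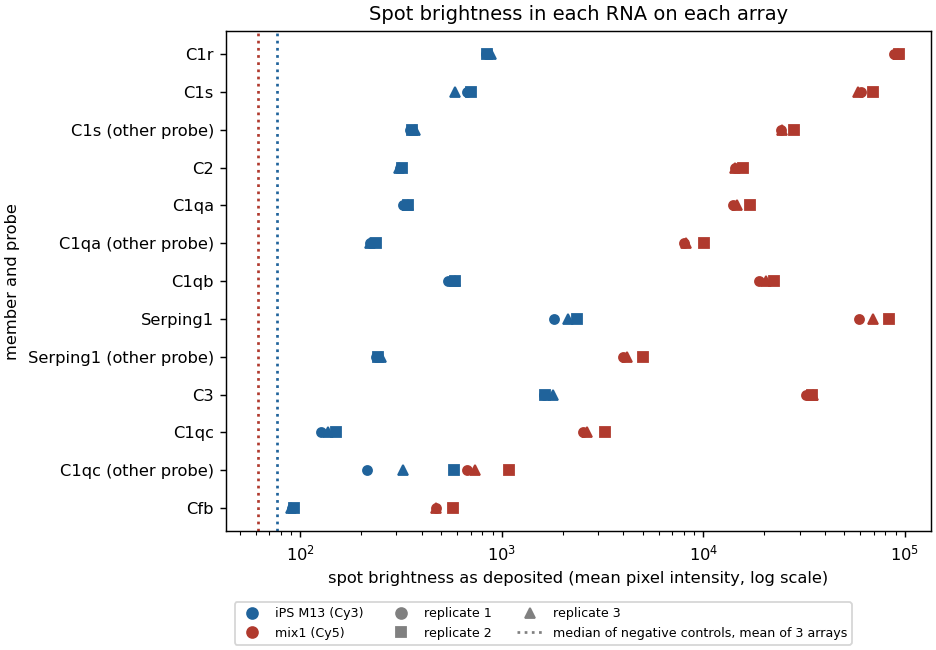
Spot brightness as deposited (horizontal axis, mean pixel intensity on a log scale) for each member and probe (vertical axis), with iPS M13 in blue and mix1 in red and a marker shape for each array. Dotted lines are the median of the negative control spots in each channel, averaged over the 3 arrays. The channels lie apart for every probe, least of all for the glycine-rich C1qc probe, where the lowest mix1 value of 674 lies near the highest iPS M13 value of 579.

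The proteases C1r and C1s differed most between the RNAs. C1r had brightnesses of 837, 848 and 879 in iPS M13 and 88057, 93053 and 92557 in mix1. Its log2 ratio was -7.54 ± 0.06 (SD, n = 3), 186-fold lower, and 79th from the lowest of all genes tested. C1s had brightnesses of 673, 706 and 587 in iPS M13 and 60823, 69457 and 58757 in mix1, and a log2 ratio of -7.40 ± 0.13 (SD, n = 3), 169-fold lower. The ratios of C1r, from -7.60 to -7.48, and of C1s, from -7.55 to -7.33, overlapped between arrays. A second C1s probe, 24153, 28302 and 24540 bright in mix1, had a log2 ratio of -7.00, which is 0.41 log2 units from the first.

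The components of the C3-cleaving enzymes spread over a wide range. C2 had brightnesses of 312, 319 and 308 in iPS M13 and 14309, 15794 and 14375 in mix1, and a log2 ratio of -6.42 ± 0.08 (SD, n = 3), 85.3-fold lower. Its ratios overlapped those of C1qa between arrays. C3, the component on which the pathways meet, had brightnesses of 1621, 1630 and 1790 in iPS M13 and 32449, 34725 and 34927 in mix1. Its log2 ratio was -5.14 ± 0.02 (SD, n = 3), 35.2-fold lower, with the smallest spread of the 9 genes. Cfb had brightnesses of 91.1, 92.9 and 89.5 in iPS M13, not well above background on any array, and 473, 575 and 474 in mix1. It was at least 4.26-fold lower, with a measured log2 ratio of -2.86 ± 0.09 (SD, n = 3), and its measured ratio was the only one above -5. Cfb, and C1qc with the probe that stands for it, were kept in the test only through mix1. The direction of a lower call there followed from how the probes were kept, and its size is known only to the bound.

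Serping1, the inhibitor of C1r and C1s, was lower together with the proteases it controls. Its brightnesses were 1810, 2369 and 2120 in iPS M13 and 59069, 83045 and 69434 in mix1. The log2 ratio was -5.82 ± 0.05 (SD, n = 3), 56.5-fold lower, and did not overlap those of C1r and C1s. A second probe, with 237, 242 and 252 in iPS M13 and 3991, 4991 and 4164 in mix1, had a log2 ratio of -4.92, which is 0.90 log2 units or 1.86-fold from the first. For C1qa the second probe had a log2 ratio of -6.09, 0.24 from the first, with iPS M13 well above background on 2 of 3 arrays.

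Read with the probe that stands for the gene, 7 members were measured in both RNAs. The order of their ratios was C1r, C1s, C2, C1qa, C1qb, Serping1 and C3. Only the neighbouring pairs C1r with C1s and C2 with C1qa overlapped between arrays. C1qc and Cfb, known to a bound with that probe, have no set place in this order. The middle of the order changed with processing. After removal of the GC trend it ran Serping1 at -6.05, C2 at -5.96, C1qb at -5.92 and C1qa at -5.77. With its second probe, at -4.92, Serping1 would stand after C3. This order is one of differences, not of levels, since probes of different genes cannot be set against each other. On replicate 3, 8 of the 9 genes had their lowest ratio, which 51.2% of the genes called lower also had. With the probe that stands for the gene, 7 members had iPS M13 spots well above background on each of the 3 arrays, where 66.8% of the genes called lower were.

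**Figure D3:**
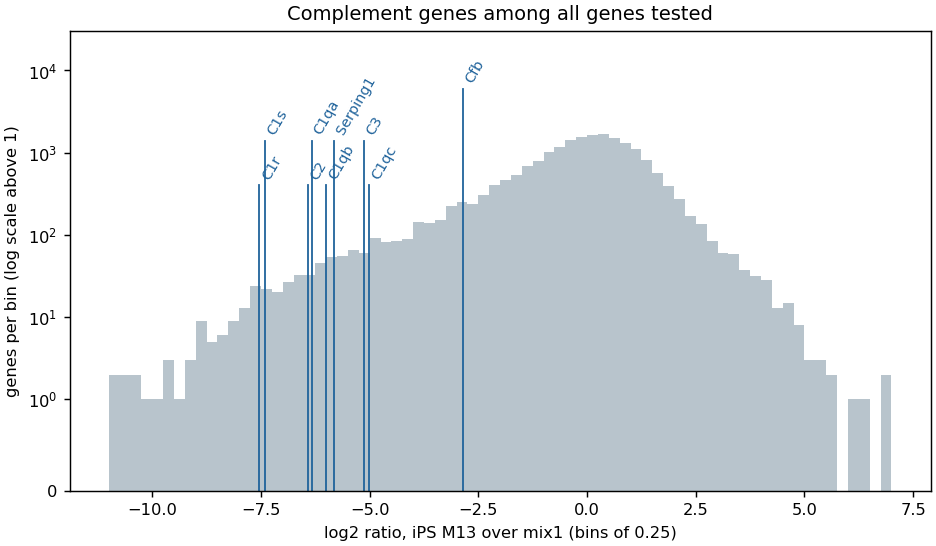
Number of genes (vertical axis, log scale above 1) in bins of 0.25 of the log2 ratio of iPS M13 over mix1 (horizontal axis), for the 20360 genes tested. Blue lines mark the 9 members, whose heights carry no value: 8 lie in the lower tail under -5, and Cfb lies at -2.86, with C1qc and Cfb drawn at measured ratios that are known only to a bound.

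Of 44 further complement genes, 40 were on the array under a name that matched and 19 were tested. Of the 19, 14 were lower in iPS M13, 2 were higher and 3 were not called, with a median log2 ratio of -2.59. Over all genes tested 25.5% were lower and 18.7% higher. In 8 of them no iPS M13 spot was well above background, so these passed only through mix1.

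Among recognition molecules and their proteases, Masp1, a protease of the lectin pathway, had a log2 ratio of -7.36 ± 0.02 (SD, n = 3), though its 5 kept probes ran from -7.36 to -2.38. C1qbp, a mostly mitochondrial protein named for its binding to C1q, was higher at 1.11 ± 0.01 (SD, n = 3). Its other kept probe had a log2 ratio of 0.90, under the 2-fold limit. The lectin ficolin gene Fcna was at least 3.70-fold lower and C4a, which encodes C4, at least 9.30-fold lower. These bounds and those that follow belong to genes named after their values were seen.

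In the alternative pathway Cfd, the protease that cuts the Cfb protein, was at least 18.5-fold lower, while Cfp, which stabilises the enzyme, had a log2 ratio of -0.90 ± 0.03 (SD, n = 3) and was not called. Of 7 terminal components, which build the membrane pore, 2 were tested: C8g at -2.42 ± 0.04 (SD, n = 3), and C6, at least 2.44-fold lower. The other 5 were not well above background often enough to be tested.

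Of 9 regulators in plasma 3 were tested and all 3 were lower. Clu had a log2 ratio of -2.35 ± 0.01 (SD, n = 3), and Cfi, the protease that inactivates C3b, was at least 11.5-fold lower. On membranes, Cd55, which speeds the decay of the C3-cleaving enzymes, had a log2 ratio of -4.37 ± 0.00 (SD, n = 3), and Cr1l, a relative of complement receptor 1, one of -0.73 ± 0.01 (SD, n = 3) and was not called.

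Receptors were called in both directions, but among those called only Itgb2 was measured in both RNAs. The direction of the other calls followed from how probes were kept, and their size is known only to a bound. Itgb2, the shared beta chain of complement receptors 3 and 4, had a log2 ratio of -5.99 ± 0.09 (SD, n = 3). C5ar1, the receptor of C5a, was at least 76.2-fold lower, Cd93 at least 42.5-fold and the macrophage receptor Vsig4 at least 1.78-fold. For Cr2 it was mix1 that stayed near background on all 3 arrays, and iPS M13 was at least 1.80-fold brighter, a bound under the 2-fold limit. C5ar2 had a log2 ratio of 0.29 ± 0.08 (SD, n = 3) and was not called. After removal of the trend with probe GC content, the calls of C1qbp and Cr2 were both lost.

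**Figure D4:**
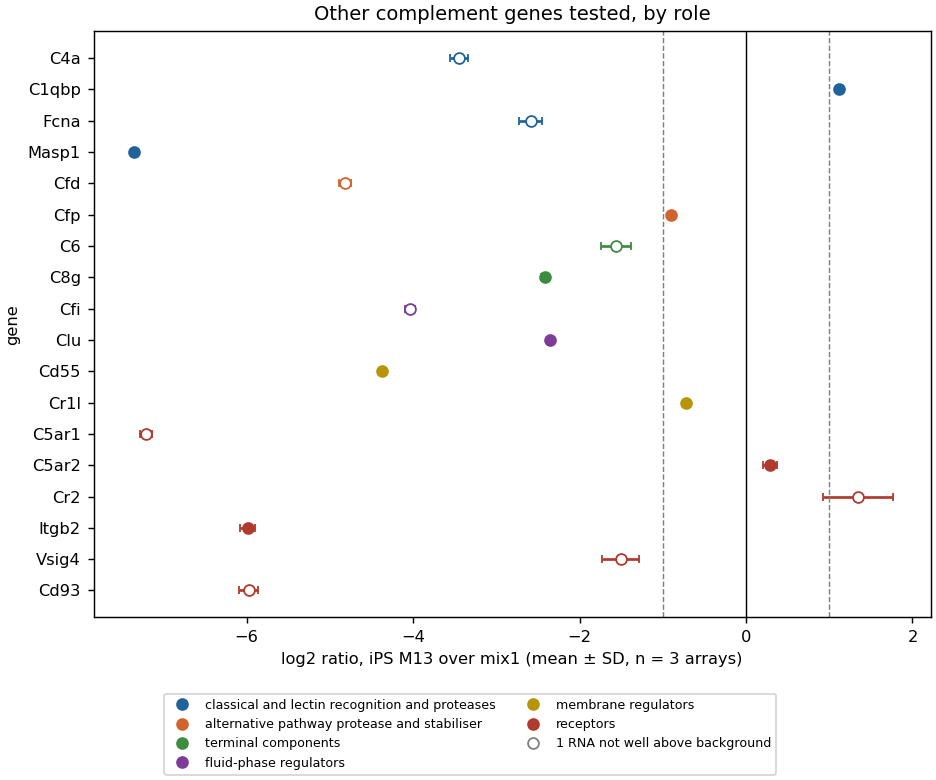
Log2 ratio of iPS M13 over mix1 (horizontal axis, mean of 3 arrays with SD bars) for further complement genes tested and named in the text (vertical axis), coloured by role. Open points are genes with no spot well above background in 1 of the RNAs, and dashed lines mark 2-fold. C1qbp and Cr2 lie right of the upper line, Cfp, Cr1l and C5ar2 lie between the lines, and the other genes shown lie left of the lower one.

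Macrophage and fibroblast markers were lower along with the complement genes, and their part in the result was not tested. The counts below stand beside 25.5% lower and 18.7% higher over all genes tested. Of 10 macrophage markers 9 were tested and all 9 were lower, with a median log2 ratio of -4.04. They were led by Cd14 at -7.49 ± 0.05 and Lyz2 at -7.43 ± 0.06 (SD, n = 3). The other kept Cd14 probe had a log2 ratio of -5.96. In 2 of the 9, Adgre1 and Ptprc, no iPS M13 spot was well above background, so the direction of their calls followed from how probes were kept. The summed normalized level of the 9 was 4008 to 4384 in iPS M13 and 233411 to 245582 in mix1. Of 10 fibroblast markers 10 were lower, with a median of -7.41, led by Col3a1 at -10.79 ± 0.16 and Dcn at -10.37 ± 0.10 (SD, n = 3), and a summed level of 14872 to 18156 in iPS M13 against 2091812 to 2366739 in mix1. The same limit held for 2 of them, Thy1 and Postn. Of 8 hepatocyte markers 0 were tested, since neither RNA was well above background for them on every array. Of 10 pluripotent cell markers 4, Nanog, Zfp42, Tdgf1 and Sall4, were not on the array under a name that matched. Of the 6 tested 5 were higher in iPS M13 and 0 lower, led by Epcam at 4.71 ± 0.13 and Dnmt3b at 4.10 ± 0.08 (SD, n = 3). Lin28a, at -0.16 ± 0.04 (SD, n = 3), was not called. For Pou5f1, 1 of the 5, mix1 was never well above background. Of 5 endoderm markers 2 were tested, with Afp higher at 3.82 ± 0.18 (SD, n = 3) and Gata6 at least 5.29-fold lower. The neutrophil marker Camp was at least 1.67-fold lower, and the lymphocyte marker Cd3d, at -0.34 ± 0.08 (SD, n = 3), was not called; each was the only marker of its list tested.

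Genes known to respond to the signals that raise complement transcription in many cells were mostly lower too. The part of those signals in the result was not tested. Of 24 interferon response genes 20 were tested and 16 were lower, 4 were not called and 0 were higher. Over all genes tested the shares were 25.5% lower and 18.7% higher. The median log2 ratio of the 20 was -2.53, and those not called were Psmb10 at 0.99, Bst2 at -0.34, Ifit1 at -0.89 and Irf9 at -0.99. In 4 of the 16, Psmb8, Cxcl10, Oas1a and Usp18, no iPS M13 spot was well above background. The direction of those calls followed from how probes were kept. Of 15 acute phase and NF-kappaB target genes 11 were tested and all 11 were lower, with a median of -5.44, and the same limit held for 3, Cp, Il6 and Vcam1. The chemokine genes Ccl2 and Cxcl1 led that list, at -10.88 ± 0.07 and -8.87 ± 0.04 (SD, n = 3).

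Of the 9 members, 7 lie beside another member in the RefSeq gene order of build GRCr8, in 3 clusters: C1qa, C1qb and C1qc on chromosome 5, C1r and C1s on chromosome 4, and C2 and Cfb on chromosome 20. The 3 named protein-coding genes on each side of the 9 members gave 30 neighbours that are no members, and 18 of them were tested. Of these 8 were lower, 3 were higher and 7 were not called, where over all genes tested 25.5% were lower and 18.7% higher. Near the C1q cluster, Wnt4 had a log2 ratio of -5.88, with iPS M13 well above background on 1 of 3 arrays. Epha8 and Zbtb40, which lie between C1qa and Wnt4, were not tested. Ephb2, beside C1qb and not above background in iPS M13, had a log2 ratio of -1.72. Near C1r and C1s, Lpcat3 was lower at -2.31 and Emg1 higher at 1.16. Near C2 and Cfb, Skic2 was lower at -1.51. Near C3, Gpr108 and Trip10 were lower at -1.37 and -1.81, and Vav1, not above background in iPS M13, had a measured ratio of -2.10. The direction of the calls of Ephb2 and Vav1 followed from how probes were kept. Near Serping1, Ube2l6 was lower at -2.82 while Clp1 and Timm10 were higher at 1.14 and 1.03.

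Promoter sequence was given by RefSeq for C1qa, C1qb, C1r and C3, and is shown because these genes were lower together. Each stretch holds the 150 bases before the start of the gene in GRCr8: chr5:154419934-154420083 (minus strand), chr5:154407828-154407977 (minus strand), chr4:159098863-159099012 (plus strand) and chr9:2201340-2201489 (minus strand). Capitals mark matches on either strand to 6 motifs: GGAAGT (the core bound by PU.1, a factor of macrophages), TTCNNNGAA (STAT-like), GAAANNGAA (interferon element), GGGNNTTTC (kappaB-like), TTNNGCAA (C/EBP-like) and TATAAA (the core of many promoters).
C1qa: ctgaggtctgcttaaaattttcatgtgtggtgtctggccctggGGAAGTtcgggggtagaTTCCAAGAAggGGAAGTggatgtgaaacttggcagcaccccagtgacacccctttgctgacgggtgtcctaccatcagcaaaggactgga
C1qb: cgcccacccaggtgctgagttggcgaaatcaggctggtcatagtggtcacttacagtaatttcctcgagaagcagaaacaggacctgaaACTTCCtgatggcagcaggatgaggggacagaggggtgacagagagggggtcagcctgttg
C1r: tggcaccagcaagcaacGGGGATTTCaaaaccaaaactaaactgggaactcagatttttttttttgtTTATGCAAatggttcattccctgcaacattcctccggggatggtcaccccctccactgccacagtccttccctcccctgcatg
C3: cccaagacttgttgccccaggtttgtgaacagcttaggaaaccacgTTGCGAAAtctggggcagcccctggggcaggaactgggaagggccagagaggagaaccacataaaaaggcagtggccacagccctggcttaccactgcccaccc
C1qa held GGAAGT at positions -107 and -79 from the start and a STAT-like match at -90, and C1qb held the reverse of GGAAGT at -61. C1r held a kappaB-like match at -133 and a C/EBP-like match at -83, and C3 a reverse C/EBP-like match at -104. Of 33469 RefSeq promoter windows of 300 bases, 22.6% held GGAAGT, 8.87% the STAT-like motif and 9.71% the interferon element. The kappaB-like motif was held by 4.53%, the C/EBP-like motif by 10.6% and TATAAA by 14.2%. These windows are longer than the 150 bases shown, so the shares are not like for like. Matches are a description of the letters, and no binding was measured.

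**Figure D5:**
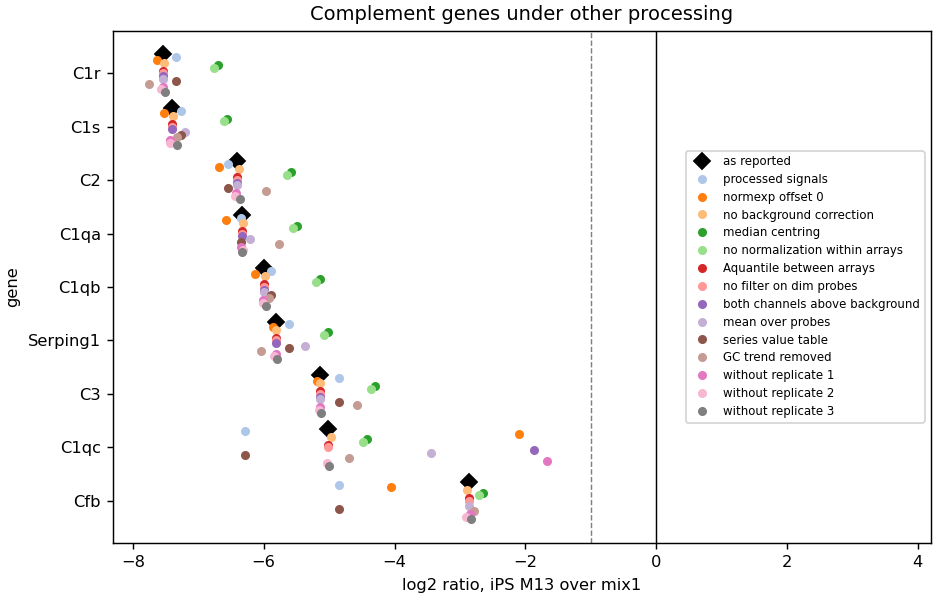
Log2 ratio of iPS M13 over mix1 (horizontal axis) of the 9 members (vertical axis) as reported (black diamonds) and under each of 14 other settings (coloured circles). All values lie left of the dashed 2-fold line, and C1qc ranges widest, from -6.29 to -1.67.

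Under the 14 other settings tried, all 125 member values kept their direction and their call. The exception in coverage was Cfb, which could not be tested when both RNAs had to be well above background. C1qc moved furthest, from -6.29 to -1.67. It was read with the glycine-rich probe when both RNAs had to be above background (-1.86), with no normexp offset (-2.09) and without replicate 1 (-1.67).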

How the data were processed

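The deposited files hold scanner output of Agilent Feature Extraction 9.5.3.1, per the file headers: spot intensity per channel and log10 ratios of Cy5 over Cy3. The authors' value table held log2 ratios of unstated direction. Against the log10 ratios its slope was -3.32, so it was read as Cy3 over Cy5, and its column medians were -0.0414, -0.0282 and -0.0286, with any centring unknown. Whether other aligners or callers were used is not given in the sources used here.

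Background was corrected by normexp (offset 50) on mean signals with median local backgrounds, followed by loess on each array with control and outlier spots given weight 0. The fits used limma (version 3.58.1, R 4.3.3), and names and figures Python 3.11.15. Outlier spots were then left out (205, 263 and 192 on replicates 1, 2 and 3). Nothing was done between arrays. All 3 arrays lay on 1 slide with 1 scan date. Probes had to be well above background on all 3 arrays in at least 1 given channel (24178 of 41012 were), and of those the brightest represented its gene. In iPS M13 58.5%, 60.8% and 53.5% of probes were well above background, in mix1 57.8%, 61.0% and 52.4%, and the number of arrays limits the precision. The mean log2 ratio was tested against 0 with lmFit and eBayes, adjusted by Benjamini-Hochberg over all genes. Calls needed an adjusted p below 0.05 and a log2 ratio of 1 or more in size. For a dim RNA, the bound divides the mean of the bright RNA by the dim signal or, where higher, the array's lowest signal that passed as well above background. Both are scaled by loess and Aquantile, and the bound is open to dye bias. Summed marker levels use the same scaling. The fit was tested on simulated data.

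Probe names were updated through RefSeq (GRCr8): 10735 of 41012 probes by accession, 5577 by symbol and 3730 by synonym, and 20970 kept the name in the file. The members and lists were chosen with earlier results of these data known. All 9 members were named; of the other complement genes, called genes measured in both RNAs, up to 12 by size, and each called higher; of each marker list the 2 with the largest ratio; and called neighbours. Further complement genes and markers with 1 dim RNA, and those not called, were named outside this rule after their values were seen. Protein sequences were not used here, and the values of a further complement gene that this rule names are not reported here. Alternatives covered background correction, normalization, probe filter, probe choice, GC trend, the value table and each array left out.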

Additional observations from a re-analysis of the deposited data

How the results depend on the processing

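The calls of the 9 members kept their side under every setting tried in which they could be tested (all but Cfb with both RNAs above background), whereas the balance of calls over all genes turned with the scaling. Median centring gave 7406 genes called higher, no within-array normalization 7011, the scanner software's processed signals 6324 and the authors' deposited log2 values 6322 such genes, where loess gave 3810. The median of all genes moved up by 0.60, 0.55 and 0.32 log2 units under the first 3 of these, and 67.2%, 65.1% and 56.6% of calls were then higher, against 42.3% after loess. Of the other complement genes, 6 were lower and 1 higher when both RNAs had to be well above background, which tests fewer genes, and 0 were higher once the GC trend was taken off (the cause was not tested). Leaving out each array in turn gave 9 members lower, 14 to 15 other complement genes lower, 5169 to 5255 genes lower and 3755 to 3903 higher. Cfb reached -4.85 with processed signals and C1qc -3.44 with the mean over its probes. The other 7 members moved by at most 0.80 to 0.85 log2 units. No paired analysis was possible because there is 1 group of samples. Dim signal limits Cfb, and C1qc with the probe that stands for it, to bounds.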
